A study of Mus musculus with 2 samples.

Results

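The 59 genes described here encode lymphoid transcription factors of 12 families: ETS, RUNX, Ikaros, TCF/LEF, E and Id proteins, IRF, KLF, FOX, T-box, HMG-box and chromatin organisers, homeobox and MYB factors, and zinc finger factors of T cell fate. They were listed by name rather than by a measured value, but with earlier results of these data known. A PPARγ peak was counted for a gene that had the nearest protein-coding transcription start site (TSS) to the peak centre, within 100 kb. By that rule 31 of the 2537 deposited peaks belonged to 18 of the 59 genes. The peaks came from 1 ChIP library of C57BL/6J mouse TH2 cells, set by the authors against 1 input library of the same cells, with no replicate. Per the series text the experiment had been repeated, and 1 run was used. Naive CD4+ T cells had been activated under TH2 conditions and given a retrovirus encoding PPARγ with a TY1 tag on days 1 and 2, and an antibody to the tag was used on day 4. The map therefore shows the introduced receptor, the share of cells that carried it was not measured in these files, and the library labels name no group without the virus. The library held 10229438 mapped tags, of which 0.534% lay in peaks. The file gives no height for single peaks, so each peak counts once. All intervals below cover counting error only and treat peaks as independent, although 9 of the 59 genes held at least 2.

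PPARγ is a nuclear receptor that binds DNA with its partner RXR at DR1 elements, direct repeats of AGGTCA with a single base between them. The transcription factors listed here set the state of a T cell. TCF-1 (Tcf7), LEF1, KLF2, FOXO1 and FOXP1 are known for keeping naive T cells at rest, and IRF4, BLIMP-1 (Prdm1), ID2, T-bet (Tbx21) and ZEB2 for effector differentiation. Genes of such factors often have enhancers far from their start sites, in introns or in neighbouring gene-poor sequence.

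The peaks that carry the sequence results are shown first, each over its full deposited width, read from the reference genome GRCm38.p6 (the build mm10) on the strand of the gene. The first set holds the 3 peaks closest to a start site. They lie at chr11:11686911-11687083 (plus strand, intron 1 of Ikzf1, 552 bp downstream of its TSS), chr7:30594414-30594586 (minus strand, intron 1 of Zbtb32, 1558 bp upstream of the TSS of a shorter transcript) and chr1:69689000-69689172 (minus strand, intergenic, 1841 bp upstream of Ikzf2). Capitals mark DR1 matches with up to 2 mismatches and matches to AP-1 (TGANTCA), the site of FOS and JUN factors. The Ikzf1 peak holds a DR1 match, and the Zbtb32 and Ikzf2 peaks hold no match to DR1 or AP-1.
Ikzf1 at 552 bp: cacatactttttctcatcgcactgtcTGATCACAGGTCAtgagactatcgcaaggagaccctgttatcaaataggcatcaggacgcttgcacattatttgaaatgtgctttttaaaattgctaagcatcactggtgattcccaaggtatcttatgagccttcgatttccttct
Zbtb32 at 1558 bp: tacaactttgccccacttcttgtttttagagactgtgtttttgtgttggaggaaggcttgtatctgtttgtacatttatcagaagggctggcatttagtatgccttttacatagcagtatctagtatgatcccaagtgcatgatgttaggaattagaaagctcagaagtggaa
Ikzf2 at 1841 bp: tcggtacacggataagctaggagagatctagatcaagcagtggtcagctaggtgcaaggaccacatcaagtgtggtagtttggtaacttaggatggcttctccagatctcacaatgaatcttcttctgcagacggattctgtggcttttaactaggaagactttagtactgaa

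The second set holds the assigned peaks whose DR1 match had a single mismatch, 2 of 31 (6.45%, against 6.46% of all peaks). They lie at chr3:131168377-131168549 (plus strand, intron 3 of Lef1) and chr12:25174244-25174416 (minus strand, upstream of Id2 in an intron of the noncoding gene Gm36287). Capitals again mark the DR1 match, which in the Id2 peak reads on the other strand.
Lef1 at 55.7 kb: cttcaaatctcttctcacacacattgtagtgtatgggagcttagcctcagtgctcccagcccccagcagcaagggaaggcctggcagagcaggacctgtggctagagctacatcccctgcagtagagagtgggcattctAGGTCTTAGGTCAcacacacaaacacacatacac
Id2 at 77.2 kb: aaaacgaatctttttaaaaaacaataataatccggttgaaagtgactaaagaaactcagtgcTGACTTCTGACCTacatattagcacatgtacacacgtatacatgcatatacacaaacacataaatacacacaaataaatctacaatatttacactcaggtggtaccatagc

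The third set holds 2 peaks with an AP-1 match within 10 bp of the centre, a choice made after the matches were seen. They lie at chr5:107754868-107755040 (minus strand, upstream of Gfi1 in intron 17 of Evi5) and chr9:32726535-32726707 (plus strand, intron 1 of Ets1). Capitals mark AP-1 matches, of which the Gfi1 peak holds 2.
Gfi1 at 29.1 kb: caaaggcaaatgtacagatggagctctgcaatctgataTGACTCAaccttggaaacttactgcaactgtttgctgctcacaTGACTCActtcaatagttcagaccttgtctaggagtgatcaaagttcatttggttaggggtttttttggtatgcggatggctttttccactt
Ets1 at 30.2 kb: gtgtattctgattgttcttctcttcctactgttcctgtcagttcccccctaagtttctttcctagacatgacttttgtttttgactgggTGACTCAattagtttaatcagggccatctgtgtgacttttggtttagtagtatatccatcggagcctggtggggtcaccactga

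Peaks were present at 18 of the 59 genes (30.5%), against 7.66% of all 21938 protein-coding genes. At least 2 peaks were assigned to 9 of the 59 (15.3%), against 1.51% of all protein-coding genes. The genes differ in how much sequence lies closest to them: the median was 138 kb within 100 kb of a start site for the 59 genes and 47.0 kb for all protein-coding genes. Per length of such sequence the 59 genes held 3.75 peaks per Mb (exact 95% Poisson interval 2.55 to 5.32), and all protein-coding genes held 1.36 per Mb (1.30 to 1.42). A list of 68 further genes of the same families, none of them among the 59, held peaks at 10 genes (14.7%) and 1.47 peaks per Mb (0.757 to 2.56). Those 10 were Elk3, Erg, Tcf7l2, Klf7, Klf9, Klf11, Foxn2, Tbx19, Zbtb20 and Zbtb38. These shares are descriptions of 1 peak list. No test of the list was made, because the genes were chosen with earlier results of these data known.

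**Figure D1:**
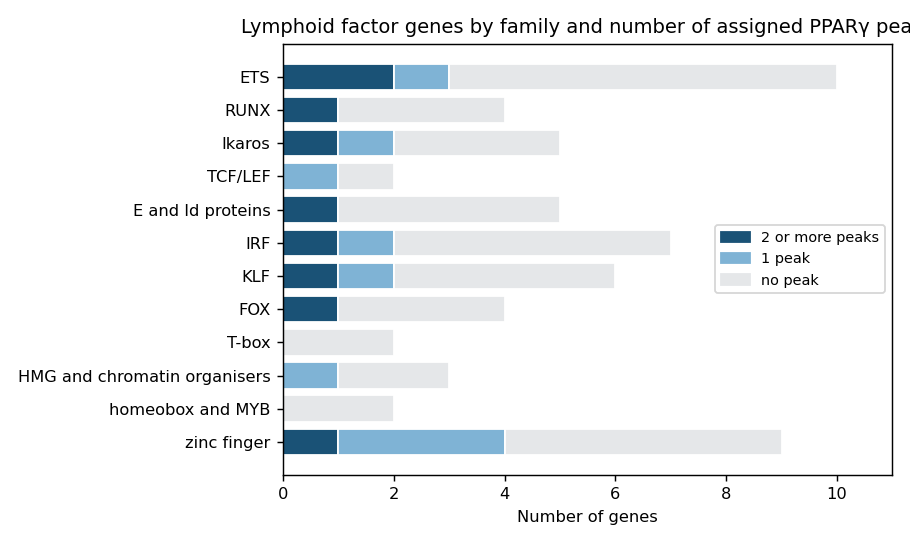
Number of genes in each of the 12 families, split into genes with 2 or more assigned PPARγ peaks, with 1 peak and with none. Only the T-box family and the homeobox and MYB group held no gene with a peak, and the zinc finger group held the most, 4 of 9.

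Among the ETS family, whose members share a winged helix DNA-binding domain, 3 of 10 genes held 7 peaks. Ets1, needed for T cell survival and differentiation, held 4 peaks, all inside the gene and downstream of its start sites. They lay at 2.51, 25.1 and 30.2 kb in intron 1 and at 45.6 kb in intron 6, so the peaks spread over the gene with 5.15 kb between the closest pair. AP-1 matches were present in the peaks at 30.2 and 45.6 kb, and DR1 matches in none of the 4. Ets2, a close relative of Ets1, held 2 intergenic peaks upstream, at 16.2 and 19.4 kb, without DR1 or AP-1. The next protein-coding start site, that of Erg, another ETS gene, was 96.1 kb from the farther of the pair. Elf1, a regulator of lymphoid genes, held 1 peak 6.71 kb downstream of an internal start site, in intron 1, centred in repeat-masked sequence and with a DR1 match. Fli1, Elf2, Elf4, Etv3, Etv6, Gabpa and Spi1, which encodes the myeloid and B cell factor PU.1, held none. A peak 67.5 kb from Elf2 was closer to Noct. The closest peak to Elf4 was 2745 kb away and to Spi1 1146 kb away, and Fli1 had a peak inside the gene, assigned to Kcnj1, 112 kb from the Fli1 start site. Etv6 also had a peak inside the gene, in intron 3, whose nearest start site was that of Bcl2l14 at 178 kb. In the comprehensive gene annotation that peak lay 15.6 kb from an Etv6 start site.

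In the RUNX family only Runx1, which T cell development requires, held peaks, and it held 4. A peak 16.2 kb upstream of the distal start site lay in repeat-masked intergenic sequence and held an AP-1 match. The other 3 lay in intron 2, between the distal start site and the proximal one: 39.3 and 62.5 kb downstream of the distal site and 50.7 kb upstream of the proximal one. The peak at 62.5 kb held a DR1 match. No other protein-coding start site lay within 100 kb of any of the 4. Runx2, Runx3, a factor of cytotoxic and TH1 cells, and Cbfb, the shared partner subunit, held none, and the nearest peaks were 817, 806 and 883 kb away.

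The Ikaros family, zinc finger factors that silence genes in lymphocytes, held peaks at 2 of 5 genes. Ikzf1, which encodes Ikaros, held the peak closest to a start site among all 59 genes, at 552 bp, with a DR1 match 54 bp from the peak centre. The peak upstream of Ikzf2, the Helios gene, at 1841 bp held neither. Ikzf3, which encodes Aiolos, Ikzf4, which encodes Eos, and Ikzf5 had no peak assigned, and their nearest peaks were 398, 220 and 524 kb away.

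Of the TCF/LEF pair, Lef1 held 1 peak in intron 3 at 55.7 kb, with 1 mismatch to DR1. Tcf7, which encodes TCF-1, held none, and its nearest peak was 236 kb away. Among the E proteins and their inhibitors only Id2, which encodes an inhibitor of E proteins, held peaks. They lay 58.5 and 77.2 kb upstream, both in an intron of the noncoding gene Gm36287, with an AP-1 match in the nearer and a DR1 match in the farther. Id3, Tcf3, Tcf4 and Tcf12 held none.

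The IRF family, factors of interferon and antigen receptor responses, held peaks at 2 of 7 genes. Irf4, induced by T cell receptor signals, was flanked by intergenic peaks 24.2 kb upstream and 55.4 kb downstream, neither with DR1 or AP-1. Irf8 held 1 peak 27.5 kb upstream, in an intron annotated to Gm20388, and the start site of Cox4i1 lay 40.6 kb from it. Irf2, Irf3, Irf5, Irf7 and Irf9 held none. A peak 38 kb from Irf7 was closer to Phrf1.

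Among KLF genes, Klf6 held 2 intergenic peaks 1.62 kb apart, 91.8 and 93.4 kb upstream, the farthest assigned to any of the 59 genes. Klf10, a gene induced by TGF-β, held 1 peak with a DR1 match 15.9 kb downstream. Klf2, Klf3, Klf4 and Klf13 held none, and the nearest peak to Klf2 was 327 kb away. Of the FOX genes, Foxp1 held 2 intronic peaks, 7.58 kb upstream of an internal start site with a DR1 match and 84.0 kb downstream of another. Foxo1, Foxo3 and Foxp3, the gene of the regulatory T cell factor, had no peak within 250 kb.

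The remaining families held 6 peaks at 5 genes. Tox2, an HMG-box gene of follicular helper cells, had a peak with an AP-1 match 3.95 kb upstream. Prdm1, which encodes the BLIMP-1 repressor, held 2 intergenic peaks downstream of the gene, at 22.3 kb with an AP-1 match and at 81.4 kb in repeat-masked sequence. Zeb2 held 1 peak in intron 3 at 42.6 kb, without DR1 or AP-1. Gfi1, a repressor known for its part in TH2 cell expansion, had the peak with 2 AP-1 matches 29.1 kb upstream. Zbtb32, which encodes a repressor of GATA3 activity, had its intronic peak 1558 bp from a start site, in a gene-dense region where Kmt2b started 5.77 kb away. Bcl6, Bcl11b, Zeb1, Zbtb7b, Zbtb16, Satb1, Tox, Hlx, Myb, Tbx21 and Eomes held none. The nearest peak to Tbx21 was 148 kb away, and a peak 97.0 kb from Eomes was closer to Itga9.

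**Figure D2:**
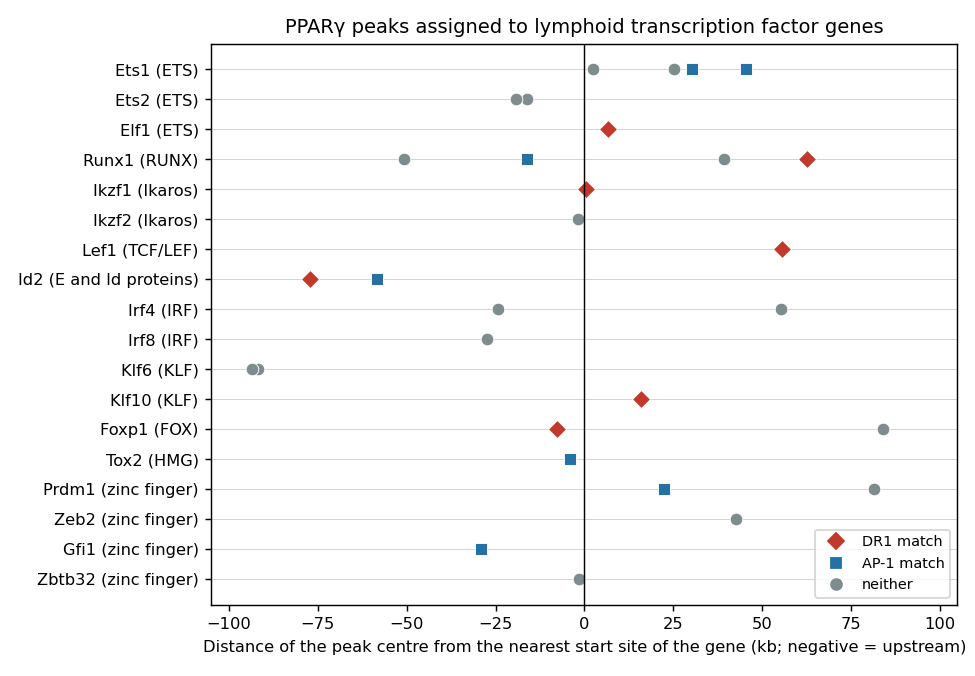
Of the 31 assigned peaks, 30 by their distance from the nearest start site of the gene (x axis, kb, negative upstream), for the 18 genes with a peak, grouped by family from top to bottom. Symbols show whether the 200 bp around the peak centre hold a DR1 match, an AP-1 match or neither. No peak holds both, and 10 of the 31 lie beyond 50 kb.

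The genes were also grouped by known role, with 15 genes listed for naive or resting T cells, 15 for effector cells and 29 in neither list. A peak was assigned to 46.7% of the effector list, 26.7% of the naive list and 24.1% of the genes in neither. Over all protein-coding genes the share was 7.66%. Of the effector list 7 genes held 10 peaks: Id2, Irf4 and Prdm1 with 2 each, and Irf8, Tox2, Zeb2 and Zbtb32 with 1 each. Of the naive list 4 genes held 9 peaks: Ets1 with 4, Ikzf1 and Foxp1 with 2 each, and Lef1 with 1. The density intervals of the lists overlapped, at 4.76 peaks per Mb (exact 95% Poisson interval 2.28 to 8.76) for the effector list and 3.36 (1.54 to 6.38) for the naive list. Genes in neither list held 3.44 peaks per Mb (1.78 to 6.00), and all protein-coding genes 1.36 (1.30 to 1.42). Tcf7, Klf2, Klf3, Foxo1, Foxo3, Bcl11b, Elf4, Satb1, Id3, Myb and Zeb1 made up the naive list without peaks. Tbx21, Eomes, Runx2, Runx3, Hlx, Ikzf3, Bcl6 and Tox made up the effector list without them. The order of the effector and naive shares depended on the assignment rule. Assignment by gene body and 10 kb upstream left Id2, Irf4, Irf8 and Prdm1 of the effector list without a peak, and all naive genes kept theirs. Where all annotated genes competed, the same effector genes and Lef1 of the naive list had none.

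Inside the body of their own gene were 2 of the 10 effector peaks, at Zeb2 and Zbtb32, against 9 of the 9 naive peaks, 4 of them at Ets1. Over all 59 genes 15 of the 31 peaks (48.4%) lay in their own gene, against 47.1% of all assigned peaks, and the difference between the lists was not tested. Gene size moved with this: own gene bodies took up 34.6% of the nearest sequence of the effector list and 55.3% of that of the naive list. The effector genes with a peak had a median length of 20.3 kb, and the naive ones 118 kb. The part of gene size in the difference was not tested, and the comparison was chosen after the positions were seen. DR1 matches were present in 1 of the 10 effector peaks and 3 of the 9 naive peaks, against 19.9% of all peaks. AP-1 matches were present in 3 peaks of each list, against 23.5% of all peaks. These small counts were not tested between the lists.

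The median distance of the peaks of the 59 genes from the nearest start site was 27.5 kb (quartiles 16.0 and 55.6 kb), against 16.4 kb (quartiles 5.0 and 37.2 kb) for all 2124 assigned peaks. With 1 start site per gene the median was 44.5 kb for the 59 genes and 18.7 kb for all protein-coding genes. Where noncoding genes competed as well, it was 16.2 kb for the 59 genes and 7.93 kb for all protein-coding genes. Beyond 50 kb were 10 of the 31 peaks (32.3%, exact 95% binomial interval 16.7 to 51.4), against 16.3% of all assigned peaks. Sequence at 50 to 100 kb made up 33.4% of the nearest sequence of the 59 genes and 24.9% of that of all protein-coding genes. In promoters, taken as 1000 bp before to 100 bp after any annotated start site, were 0 of the 31 peaks, which allows a share of up to 9.68% (3 counts of the total, the limit given here for a count of 0), against 9.04% of all assigned peaks. Introns held 19 of the 31 (61.3%, interval 42.2 to 78.2), against 53.3% of all assigned peaks, and intergenic sequence held the other 12. Of the 19, 15 were in the gene to which the peak was assigned. Upstream of the start site were 15 of the 31 peaks (48.4%), against 44.5% of all assigned peaks.

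Peak density was then taken by distance from the start site, per length of sequence at that distance. Around the 59 genes there were 4.57 peaks per Mb within 10 kb, 3.52 at 10 to 50 kb, 3.62 at 50 to 100 kb and 3.52 at 100 to 400 kb. Around all protein-coding genes the same distances gave 1.95, 1.28, 0.892 and 0.481 peaks per Mb. At 100 to 400 kb the exact 95% Poisson intervals were 2.18 to 5.38 for the 59 genes and 0.432 to 0.534 for all genes. Ets1 held 7 of the 21 peaks in that range, and without Ets1 the density there was 2.47 per Mb (1.35 to 4.15). Without Ets1 the nearer distances gave 3.97, 2.83 and 3.72 per Mb. A trend with distance was not tested.

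**Figure D3:**
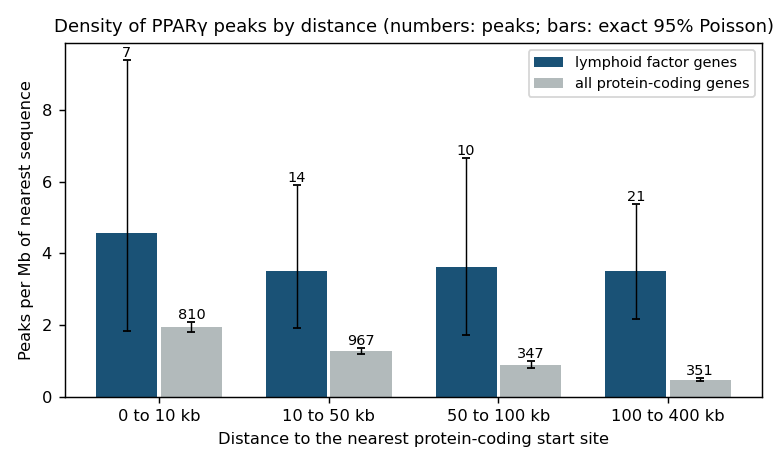
Peaks per Mb of the sequence nearest to a gene, by distance from its start site, for the 59 lymphoid factor genes (left bar of each pair) and all protein-coding genes (right bar). Numbers over the bars count peaks and error bars are exact 95% Poisson intervals. The bars of the 59 genes lie between 3.52 and 4.57 at every distance, with wide intervals (1.84 to 9.41 within 10 kb). Those of all genes fall to 0.481.

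Beyond the 100 kb limit 22 further peaks had one of the 59 genes as the nearest protein-coding gene, of 413 such far peaks in all (5.33%). At 100 to 400 kb the nearest sequence of the 59 genes was 5.96 Mb, of 730 Mb for all protein-coding genes. The peaks closest to the limit were a Klf6 peak at 93.4 kb, counted above, and a Foxp1 peak at 127 kb, not counted. Ets1 had 7 far peaks, in a row downstream of the gene from 204 to 365 kb, the largest number among the 59 genes. The Ets1 peak at 204 kb held a DR1 match with 1 mismatch, that at 270 kb an AP-1 match and that at 329 kb both kinds. Klf6 had 3 far peaks, at 198.6 and 320 kb downstream with DR1 matches and at 316 kb upstream with AP-1. Satb1, which encodes an organiser of chromatin in thymocytes and held no peak within 100 kb, had 3 upstream at 203, 292 and 329 kb. All of the Satb1 peaks lay in introns of the noncoding gene Gm19585, and none held DR1 or AP-1. Runx1 and Id2 had 2 far peaks each, at 231 and 366 kb and at 342 and 374 kb, all upstream. Ikzf2, Foxp1, Klf4, Tox and Zeb2 had 1 each. The Klf4 peak, 244 kb upstream, held both a DR1 match with 1 mismatch and an AP-1 match, and that of Zeb2 lay 1242 kb away. DR1 matches were present in 5 of the 22 far peaks of the 59 genes (22.7%) and AP-1 matches in 7 (31.8%). The shares of all far peaks were 16.0% and 24.2%, and with so few peaks the differences were not tested.

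**Figure D4:**
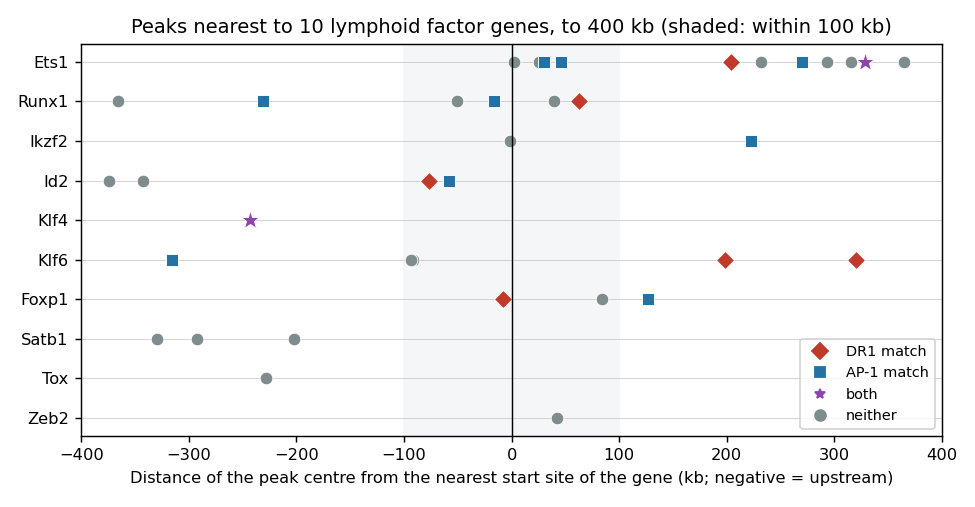
Peaks nearest to the 10 lymphoid factor genes that have a peak beyond 100 kb, by distance from the nearest start site of the gene (x axis, kb, negative upstream), with the 100 kb limit shaded. Symbols mark DR1, AP-1, both or neither, and the Zeb2 peak at 1242 kb is outside the axis. The 7 far peaks of Ets1 stand in a row at 204 to 365 kb downstream.

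DR1 and AP-1 occurred at about the share seen in the whole peak list. DR1 matches were present in 7 of the 31 peaks (22.6%, exact 95% binomial interval 9.59 to 41.1), against 19.9% of all peaks and 3.07% of 200 bp windows centred 2000 bp to either side of the peaks. AP-1 matches were present in 8 of the 31 (25.8%, interval 11.9 to 44.6), against 23.5% of all peaks and 6.64% of the flanking windows. The 7 DR1 matches belonged to 7 different genes, and the AP-1 peaks to 7 genes as well. Id2 and Runx1 were among the genes with both kinds in separate peaks. Both in the same peak occurred in 0 of the 31, which allows a share of up to 9.68%, against 4.30% of all peaks. Neither motif was found in 16 of the 31 peaks (51.6%), against 60.9% of all peaks, and 7 genes had only such peaks: Ets2, Ikzf2, Irf4, Irf8, Klf6, Zbtb32 and Zeb2. None of the 7 matches equalled the consensus.

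The 7 DR1 matches were compared 5′ to 3′ in the direction of the repeat, with the bases that differ from the consensus in capitals. Coordinates are those of GRCm38, and each match is named by its gene. The downstream core, which comes after the spacer base, was intact in the Ikzf1 and Lef1 matches. The upstream core was intact in the Id2 and Klf10 matches. In the Elf1, Runx1 and Foxp1 matches each core carried 1 mismatch.
Lef1, chr3:131168516-131168528, plus strand: aggtcTtaggtca
Id2, chr12:25174342-25174354, plus strand: aggtcagaAgtca
Ikzf1, chr11:11686937-11686949, plus strand: TgAtcacaggtca
Klf10, chr15:38283173-38283185, minus strand: aggtcagagAAca
Elf1, chr14:79522397-79522409, plus strand: aggCcagGggtca
Runx1, chr16:92763618-92763630, minus strand: aggtAagaggGca
Foxp1, chr6:99035822-99035834, plus strand: aggtGaaaggGca

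The sites of the families themselves were searched only as the sequences given here, without mismatch. Other forms of these sites were not searched, so a peak without a match can still hold one. The searched sequences occurred in few peaks, as in the whole list. The exact ETS sequence AGGAAGT was found in 0 of the 31 peaks, the 7 peaks of ETS genes included, which allows up to 9.68%. It was present in 8.0% of all peaks and 5.64% of flanking windows. The RUNX site (TGTGGTT) was present in 2 peaks (6.45%), the upstream Runx1 peak and the Zeb2 peak, against 7.49% of all peaks. The IRF site, GAAA repeated after 2 bases of any kind, was found at Prdm1 alone (3.23% against 4.06%). The TCF site (CTTTGAT) was found at Gfi1 alone (3.23% against 5.05%), and the FOX site (GTAAACA) in none (against 3.82%). The KLF site (GGGTGTGG) occurred in the nearer Id2 peak (3.23% against 1.89%) and the T-box site (AGGTGTGA) in a Klf6 peak (3.23% against 0.907%). The GATA sequence AGATAA was present in 2 of the 31 (6.45%, interval 0.791 to 21.4), at Ets2 and Klf10, against 16.1% of all peaks. Other GATA sequences were not counted. The E-box CAGCTG was found in 3 (9.68% against 9.58%), and the STAT site, TTC and GAA around 3 bases of any kind, in 2 (6.45% against 9.85%). A single AGGTCA core was present in 9 (29.0% against 27.7%). The AP-1 and IRF composite, TGANTCA directly after GAAA or with TTTC 4 bases before it, was found in 0 of the 31, against 1.46% of all peaks. With 31 peaks each of these intervals takes in the share of all peaks. Matches were searched on both strands; the AP-1 and IRF composite overlaps AP-1, and DR1 can overlap the single core.

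**Figure D5:**
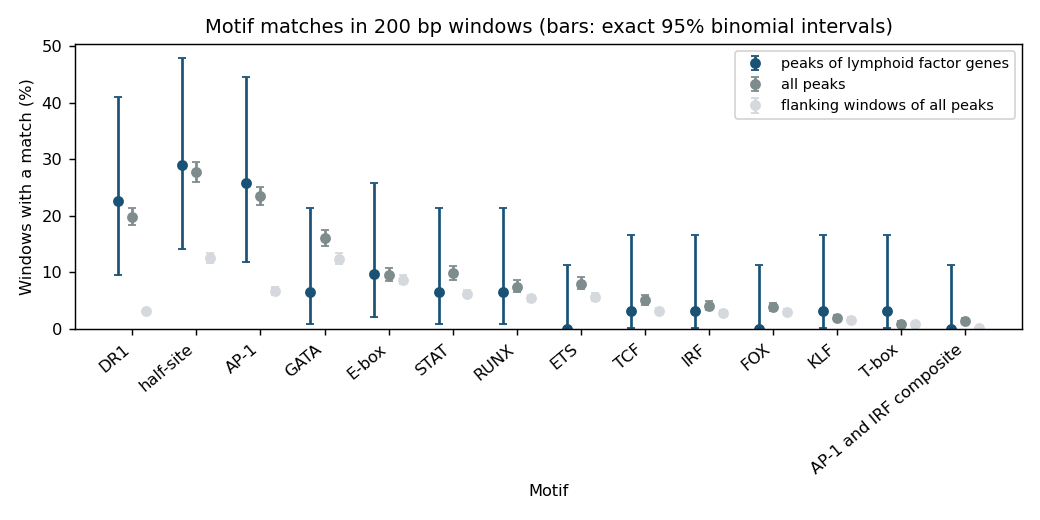
Share of 200 bp windows with a match to each of 14 motifs (y axis, percent), for the 31 peaks of the lymphoid factor genes, all 2537 peaks and the 5074 flanking windows, with exact 95% binomial intervals. For the 59 genes the shares of DR1, AP-1 and the single AGGTCA core (half-site on the axis) are the highest, at 22.6%, 25.8% and 29.0%.

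The peaks of the 59 genes resembled the whole list in base composition and repeats. Their median GC content was 44.5%, against 43.9% for all assigned peaks, and 5 of the 31 centres (16.1%) were repeat-masked, against 16.2%. Another peak lay within 10 kb of 6 of the 31 (19.4%), in the pairs at Ets1, Ets2 and Klf6, against 17.4% of all assigned peaks. The gene named by the rule was the only protein-coding gene with a start site within 100 kb for 21 of the 31 peaks. For 16 of the 31 a noncoding gene or pseudogene started closer, as at both Id2 peaks and both Irf4 peaks. Where all annotated genes competed for a peak, 15 peaks at 11 genes were left, and Id2, Irf4, Irf8, Klf6, Klf10, Lef1 and Prdm1 had none.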

How the data were processed

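ChIP-seq of TY1-tagged PPARγ in mouse TH2 cells was analysed as 1 ChIP library with 1 input library. The authors used Bowtie2 with mm10 and then HOMER, per the submitters' processing notes, and kept uniquely mapped tags, per the series text. Tool versions are not given in the sources used here. A peak had to pass a false discovery rate of 0.001 and exceed both the input and the local 10000 bp by 4-fold in tag density, per the file headers. The deposited score column holds 1 in each row, so peaks could not be ranked and no stricter threshold was tried.

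Start sites were those of protein-coding genes in the GENCODE vM21 basic set, chromosomes 1 to 19, X and Y, and all peaks fitted the chromosome lengths of GRCm38. Intron numbers follow the longest overlapping coding transcript. DR1 allowed 2 mismatches in 12 fixed bases, and other motifs none. The genes, lists and motifs were chosen with earlier results of these data known, so no set test was made. Gene lists for roles and families came from general knowledge. Values of each peak were to be given for genes with several peaks, a peak within 5 kb or beyond 50 kb, or a close DR1 match; the other peaks are given as well. Motif search and assignment were tested on simulated data. Alternatives covered start sites, distance limits, assignment, windows, mismatches and parts of the file. Intervals are exact at 95% (Clopper-Pearson for shares) and cover counting error. The limit for a count of 0 is 3 counts of the total, slightly below the upper exact bound, which is 11.2% for 31 peaks. Python 3.11.15, numpy 2.4.6, scipy 1.17.1 and matplotlib 3.10.9 were used. For 1 peak the sequence and position are not reported here, while the counts include it.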

Additional observations from a re-analysis of the deposited data

How the results depend on the processing

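The 18 genes and 31 peaks were counted again under 12 other settings. Where all annotated genes competed, 11 genes and 15 peaks remained; within 10 kb there were 7 genes with 7 peaks. Assignment by gene body and 10 kb upstream gave 19 peaks at 12 genes, 10 of them among the 18, with Etv6 and Fli1 gained. Counting a peak for every gene with a start site within 100 kb gave 40 peaks at 21 genes, with Elf2, Eomes and Irf7 gained. The first 1268 rows of the file held 17 of the peaks and the other 1269 held 14, by construction of the split. The comprehensive annotation, added after the data were seen, gave 34 peaks at 20 genes, with Etv6 and Tox gained. With 1 start site per gene Elf1 and Foxp1 were lost. The DR1 share was 6.45% with at most 1 mismatch and 0% with none, because fewer matches qualify. The median distance was 44.5 kb with 1 start site per gene and 16.2 kb where all annotated genes competed, against 27.5 kb. The AP-1 share was between 14.3% and 38.7%. With 31 peaks a share is known to within about 10 to 20 percentage points. No paired analysis was possible because there is 1 ChIP library.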
